A study of Mus musculus with 6 samples.

Results

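The genes described here are 10 immediate early and NF-kB feedback genes, Fos, Jun, Junb, Egr1, Nr4a1, Nr4a2, Zfp36, Ier3, Nfkbia and Tnfaip3, out of 16418 gene names tested on the arrays. They were taken by gene symbol: every non-control probe of the scanner files that carries one of these names was used, which gave 12 probes, with 2 each for Junb and Zfp36 and 1 for every other gene. Transcripts of pancreatic islets were measured on Agilent oligonucleotide arrays, which report the brightness of the dye Cy3 at each probe, with 1 colour and 1 sample per array. Mice of the strain NZO/HiBomDife (New Zealand Obese, NZO below), labelled diabetes-prone, gave 3 arrays, replicates 10, 11 and 12, and mice of the strain C57BL/6.V-Lepob/ob (B6-ob/ob below), labelled diabetes-resistant, gave 3, replicates 4, 5 and 6. All mice were male, had eaten high-fat chow free of carbohydrate up to 18 weeks of age, and gave their islets 48 h after carbohydrate entered the diet. B6-ob/ob mice lack functional leptin in every tissue, and the NZO and B6-ob/ob genomes differ at many loci, so leptin and strain background cannot be told apart in this comparison. The labels name no litter, animal or pool, so a p-value measures only how far these samples spread, which may be technical, and precision is limited by how many arrays there are. Islets taken before carbohydrate was given were not analysed here, and the values compare strains at 1 time, not a response to carbohydrate.

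Immediate early genes are transcribed within minutes of a signal such as growth factors, calcium entry, cAMP or cell stress, without new protein synthesis, and most of their transcripts are short-lived. Their products include the AP-1 subunits FOS, JUN and JUNB, the zinc finger factor EGR1 and the orphan nuclear receptors NR4A1 and NR4A2, and in beta cells glucose is among the signals known to induce several of them. NF-kB is held in the cytoplasm by inhibitors such as the product of Nfkbia and, once released, induces the genes of its own inhibitors, among them Nfkbia and Tnfaip3, which closes a negative feedback loop. Zfp36 and Ier3 are induced by both kinds of signal.

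The promoters of these genes are known for cAMP response elements, serum response elements and kappaB sites, and the sequences of 6 of them are shown to place such matches beside the expression values. Windows of 250 bases upstream of the annotated start were taken from RefSeq (GRCm38.p6) for 9 of the 10 genes, with 2 starts for Tnfaip3. They were searched on both strands for the CRE core TGACG, the full CRE TGACGTCA, the AP-1 site TGANTCA, the GC box GGGCGG, the NR4A site NBRE AAAGGTCA, the CArG box bound by serum response factor and the kappaB motif. In the sequences below, written 5' to 3' on the gene's own strand, capitals mark the CRE core, AP-1, CArG and kappaB matches, and GC boxes are left in lower case.
Fos (chr12:85473640-85473889, plus strand): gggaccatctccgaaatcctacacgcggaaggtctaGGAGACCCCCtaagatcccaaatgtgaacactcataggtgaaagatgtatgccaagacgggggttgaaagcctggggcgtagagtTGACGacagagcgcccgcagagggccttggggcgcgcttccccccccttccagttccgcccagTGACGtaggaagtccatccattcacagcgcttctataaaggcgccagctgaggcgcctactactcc
Nr4a1 (chr15:101266596-101266845, plus strand): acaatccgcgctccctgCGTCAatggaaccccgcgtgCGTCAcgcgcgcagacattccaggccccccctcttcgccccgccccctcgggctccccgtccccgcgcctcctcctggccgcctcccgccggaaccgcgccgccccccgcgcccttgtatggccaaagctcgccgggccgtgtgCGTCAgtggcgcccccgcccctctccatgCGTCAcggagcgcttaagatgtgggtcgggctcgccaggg
Zfp36 (chr7:28379229-28379478, minus strand): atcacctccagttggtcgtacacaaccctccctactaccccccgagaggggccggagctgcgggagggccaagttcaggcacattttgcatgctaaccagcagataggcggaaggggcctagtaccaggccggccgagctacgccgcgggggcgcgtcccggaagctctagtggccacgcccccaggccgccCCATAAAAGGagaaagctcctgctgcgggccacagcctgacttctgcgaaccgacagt
Ier3 (chr17:35821463-35821712, plus strand): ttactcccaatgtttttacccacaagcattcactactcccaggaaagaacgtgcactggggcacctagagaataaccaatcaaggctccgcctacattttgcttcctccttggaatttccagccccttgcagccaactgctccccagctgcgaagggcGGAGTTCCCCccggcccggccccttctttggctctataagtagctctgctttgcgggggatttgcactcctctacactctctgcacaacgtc
Nfkbia (chr12:55492648-55492897, minus strand): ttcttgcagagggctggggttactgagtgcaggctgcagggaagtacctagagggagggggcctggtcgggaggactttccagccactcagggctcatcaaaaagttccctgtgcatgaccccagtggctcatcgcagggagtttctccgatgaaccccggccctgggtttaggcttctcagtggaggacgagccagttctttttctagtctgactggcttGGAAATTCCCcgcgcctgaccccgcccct
Tnfaip3 (chr10:19015411-19015660, minus strand): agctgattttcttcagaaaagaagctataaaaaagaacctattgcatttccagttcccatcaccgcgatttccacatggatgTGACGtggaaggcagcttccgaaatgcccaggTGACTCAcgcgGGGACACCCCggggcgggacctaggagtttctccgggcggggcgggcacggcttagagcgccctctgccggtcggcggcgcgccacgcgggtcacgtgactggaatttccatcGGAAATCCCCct
A CRE core, in either orientation, lay in the windows of Fos, Junb, Nr4a1, Nr4a2 and Tnfaip3, against 17.8% of 32851 windows in the table, and a full CRE in none, against 1.55%. A kappaB match lay in the windows of Fos, Ier3, Nfkbia and Tnfaip3, against 3.9% of windows. The match of Nfkbia ends 20 bases before its start, and of the 2 in the window of Tnfaip3 shown one ends 3 bases before its start. A CArG box lay in the window of Zfp36 alone, against 1.47%, and an AP-1 site in that of Tnfaip3 alone, against 6.75%. The promoter of Egr1 is not included, and sites more than 250 bases upstream of a start were not searched. A gene without a match here may therefore have one farther upstream. GC boxes lay in the windows of 8 of the 9 genes, Junb being the exception, against 32.7%, and NBRE matches in none, against 1.34%. A match describes letters in a window and does not show that a factor is bound there.

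In NZO islets the transcripts of Tnfaip3, Ier3, Zfp36, Nr4a2 and Junb were higher than in B6-ob/ob islets, by 1.34, 1.21, 1.15, 0.89 and 0.77 on the log2 scale, which are fold changes of 2.54, 2.31, 2.22, 1.86 and 1.71. Every signed value is NZO minus B6-ob/ob, with strains as the scanner files are labelled. The deposited value table, whose columns follow arrays of the other strain, gives the opposite direction. Levels are log2 processed signals minus the array's 75th percentile over all non-control probes, and differences were tested with limma over 16418 genes. Thus 5 of the 10 genes were called higher at an adjusted p below 0.05 and 0 lower, against 13.2% of all genes called higher, 9% called lower and 22.2% called in either direction. Fos, Jun and Egr1 differed by -0.10, 0.29 and 0.18 and were not called, nor were Nr4a1 at 0.93 and Nfkbia at 1.00. The 3 NZO arrays lay wholly above the 3 B6-ob/ob arrays for 7 of the 10 genes, against 20.7% of all genes. For Fos, Jun and Egr1 the strains overlapped, and no gene of the 10 had all NZO arrays below, against 20.4% of all genes. The median difference of the 10 genes was 0.91, beside a median of -0.03 over all genes tested. All 12 probes were well above background on all 6 arrays and none was saturated. In whole islets a transcript level depends both on how many cells of a type are present and on the RNA per cell, and these cannot be told apart.

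**Figure D1:**
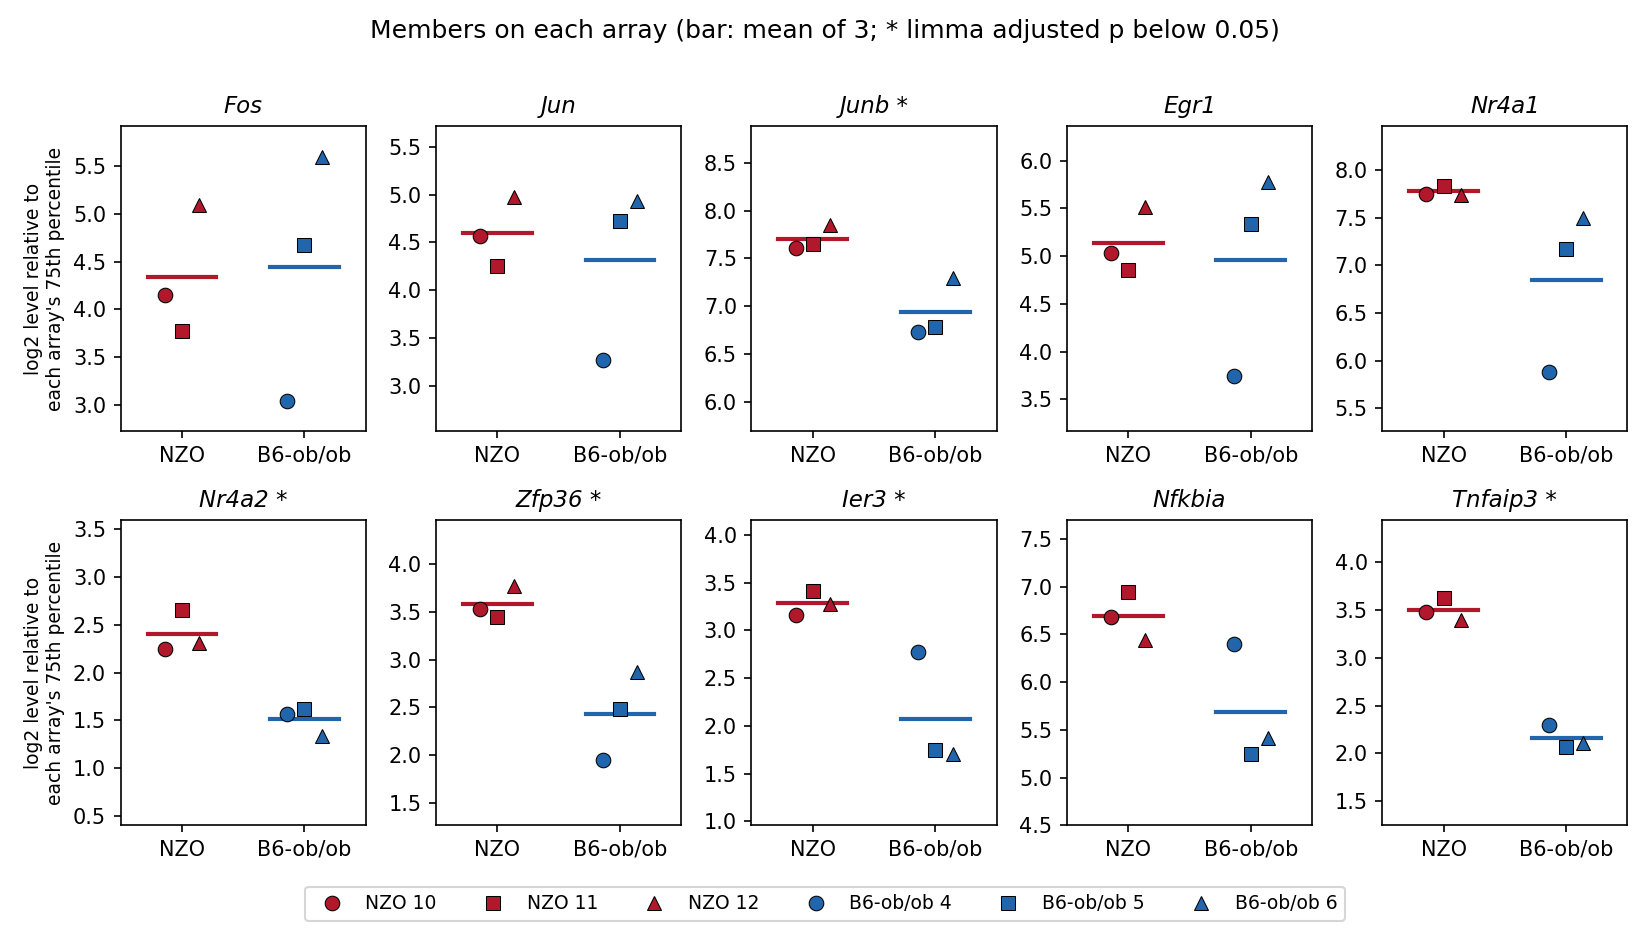
Each panel plots 1 gene on the 6 arrays, with the log2 level relative to the array's 75th percentile on the y axis (panels have their own position but span an equal range). Red points are the NZO arrays, blue points the B6-ob/ob arrays, and bars are the means of 3. Stars mark the 5 genes called with limma, in which all red points lie above all blue points, while Fos, Jun and Egr1 overlap, with B6-ob/ob replicates 5 and 6 high and replicate 4 low.

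Fos encodes the AP-1 subunit that pairs with JUN proteins and is the best known immediate early gene. Its log2 level was 4.15, 3.77 and 5.09 on NZO arrays 10, 11 and 12, against 3.04, 4.68 and 5.60 on B6-ob/ob arrays 4, 5 and 6. B6-ob/ob thus held both the lowest and the highest of the 6 values, and the NZO arrays fell between them. The means were 4.34 ± 0.68 in NZO and 4.44 ± 1.29 in B6-ob/ob (SD, n = 3 each), a difference of -0.10 with a 95% interval of -1.76 to 1.56 (limma adjusted p = 0.937). The interval reaches beyond 2-fold in either direction, so the data do not show that the strains are alike. Jun, the main partner of FOS in AP-1, had levels of 4.57, 4.25 and 4.97 in NZO, against 3.27, 4.73 and 4.94 in B6-ob/ob. Its lowest value was also that of B6-ob/ob replicate 4, and the other B6-ob/ob arrays lay within the NZO range. The difference was 0.29, with a 95% interval of -0.84 to 1.41 (limma adjusted p = 0.713).

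Junb encodes an AP-1 subunit that is a weaker activator than JUN and can oppose it. Its brighter probe had levels of 7.61, 7.65 and 7.85 in NZO, against 6.72, 6.78 and 7.29 in B6-ob/ob. No B6-ob/ob array reached the lowest NZO array, although B6-ob/ob replicate 6 came closest. The means were 7.71 ± 0.13 in NZO and 6.93 ± 0.31 in B6-ob/ob (SD, n = 3 each), which differ by 0.77 (standard error, SE, 0.18, limma adjusted p = 0.0301). The other Junb probe, whose target positions overlap those of the brighter one, had 6.93, 6.78 and 7.28 in NZO, against 5.89, 6.01 and 6.60 in B6-ob/ob. Its difference of 0.83 (SE 0.23) fell just outside the threshold over all kept probes (limma adjusted p = 0.0513). Both probes place every NZO array above every B6-ob/ob array.

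Egr1 encodes a zinc finger activator induced by growth factors and, in beta cells, by glucose and calcium. Its levels were 5.03, 4.86 and 5.51 in NZO, against 3.75, 5.34 and 5.78 in B6-ob/ob. B6-ob/ob replicate 4 was the lowest of the 6 arrays, as for Fos and Jun, and B6-ob/ob replicate 6 was the highest, as for Fos. The difference was 0.18 with a 95% interval of -1.10 to 1.46 (limma adjusted p = 0.847).

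Nr4a1 and Nr4a2 encode orphan nuclear receptors that are induced by cAMP and calcium and need no ligand. Nr4a1 had levels of 7.75, 7.84 and 7.74 in NZO, against 5.89, 7.17 and 7.49 in B6-ob/ob. The NZO arrays lay within 1.07-fold of each other and above all B6-ob/ob arrays, which spanned 3.05-fold. The means were 7.78 ± 0.05 in NZO and 6.85 ± 0.85 in B6-ob/ob (SD, n = 3 each), and the difference of 0.93 had a 95% interval of -0.06 to 1.91 (limma adjusted p = 0.163). Nr4a2 had levels of 2.25, 2.66 and 2.31 in NZO, against 1.57, 1.62 and 1.34 in B6-ob/ob. Here the NZO arrays lay within 1.33-fold and the B6-ob/ob arrays within 1.22-fold of each other. B6-ob/ob replicate 4 lay between the other B6-ob/ob arrays. The SD over NZO arrays equalled or exceeded that of 63.9% of all genes. The means were 2.40 ± 0.22 in NZO and 1.51 ± 0.15 in B6-ob/ob (SD, n = 3 each), which differ by 0.89 (SE 0.16, limma adjusted p = 0.0104). Whether the difference of Nr4a2 exceeds that of Nr4a1 was not tested.

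Zfp36 encodes tristetraprolin, which binds AU-rich elements of cytokine transcripts, and of its own, and speeds their decay. Its brighter probe had levels of 3.53, 3.45 and 3.77 in NZO, against 1.95, 2.48 and 2.87 in B6-ob/ob. The strains did not overlap, and B6-ob/ob replicate 4 was again the lowest array and replicate 6 the highest of its strain. The means were 3.59 ± 0.17 in NZO and 2.43 ± 0.46 in B6-ob/ob (SD, n = 3 each), which differ by 1.15 (SE 0.25, limma adjusted p = 0.0211). The other Zfp36 probe had -1.37, -1.71 and -1.31 in NZO, against -3.31, -2.17 and -1.89 in B6-ob/ob. Its arrays did not overlap either, but its difference of 1.00 (SE 0.37) was not called (limma adjusted p = 0.110 over all kept probes). The processed signal of that probe lay between 37.1 and 168 over the 6 arrays.

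Ier3 encodes a small protein induced by stress and by NF-kB that influences cell survival. Its levels were 3.17, 3.41 and 3.28 in NZO, against 2.77, 1.75 and 1.70 in B6-ob/ob. The NZO arrays were tight and lay above all B6-ob/ob arrays, and B6-ob/ob replicate 4 was in this gene the highest of its strain. The means were 3.28 ± 0.12 in NZO and 2.08 ± 0.60 in B6-ob/ob (SD, n = 3 each), which differ by 1.21 (SE 0.30, limma adjusted p = 0.0344).

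Nfkbia encodes IkB-alpha, which binds NF-kB dimers and keeps them out of the nucleus. Its levels were 6.69, 6.95 and 6.44 in NZO, against 6.40, 5.25 and 5.41 in B6-ob/ob. The strains did not overlap, but NZO replicate 12, the lowest of its strain, lay only just above B6-ob/ob replicate 4, the highest of its own. The means were 6.69 ± 0.26 in NZO and 5.69 ± 0.62 in B6-ob/ob (SD, n = 3 each), and the difference of 1.00 had an unadjusted 95% interval of 0.22 to 1.79. After adjustment over all genes it was not called (limma adjusted p = 0.0765).

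Tnfaip3 encodes a ubiquitin-editing enzyme that dampens signals from the TNF receptor and toll-like receptors to NF-kB. Its levels were 3.48, 3.63 and 3.39 in NZO, against 2.30, 2.06 and 2.11 in B6-ob/ob. Even the lowest NZO array exceeded the highest B6-ob/ob array by over 1 on the log2 scale, and both strains were tight. The processed signals, before scaling between arrays, were 4844, 4228.5 and 4301 in NZO, against 1812, 1894 and 1901 in B6-ob/ob. The means were 3.50 ± 0.12 in NZO and 2.16 ± 0.12 in B6-ob/ob (SD, n = 3 each), which differ by 1.34 (SE 0.12, limma adjusted p = 0.00114). This was the smallest adjusted p of the 10 genes.

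**Figure D2:**
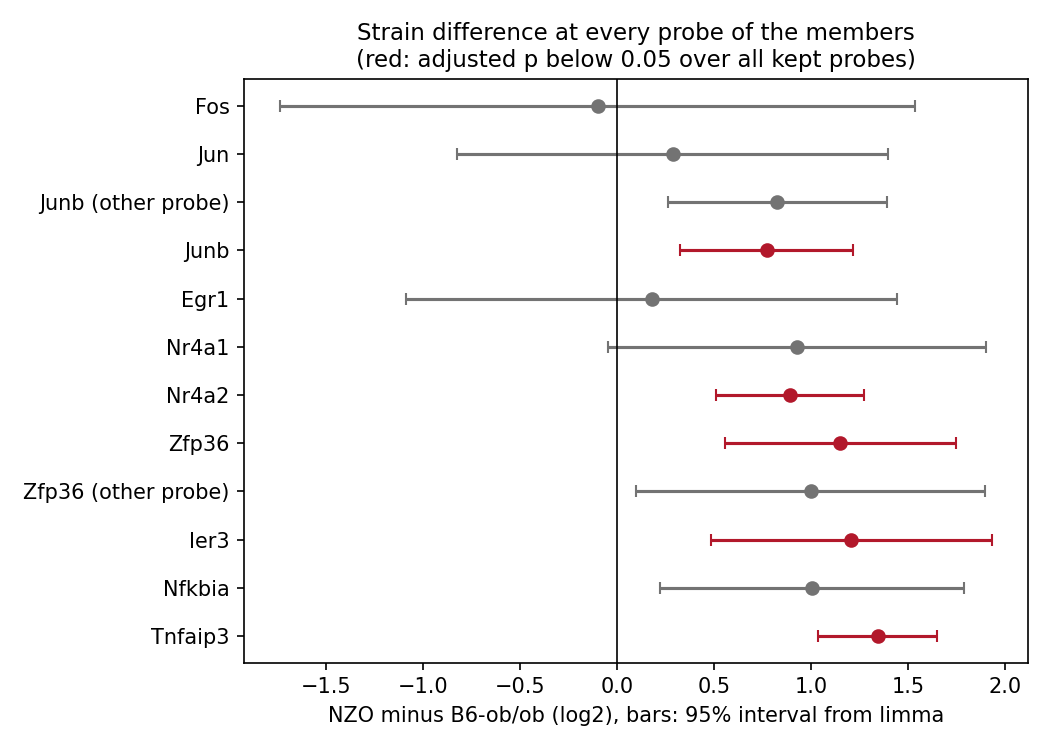
The x axis is the difference of NZO minus B6-ob/ob on the log2 scale at each of the 12 probes, with 95% intervals from limma, and red points are the 5 probes called over all kept probes. The intervals of Fos, Jun and Egr1 are the widest and cross 0, and that of Tnfaip3 is the narrowest.

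Over every probe, 5 of 12 were called higher and 0 lower, against 11.5% of 24628 kept probes called higher and 21.8% called in either direction. In the coordinates of the files, on mm9, the Fos probe lies at chr12:86817900-86817959 and the Jun probe at chr4:94715864-94715923. The Junb probes lie at chr8:87500881-87500940 and chr8:87500843-87500902, and the Nr4a1 and Nr4a2 probes at chr15:101105071-101105130 and chr2:56960699-56960758. The Zfp36 probes lie at chr7:29162132-29162191 and chr7:29161940-29161999, and the Ier3 probe at chr17:35959528-35959587. The Tnfaip3 probe lies at chr10:18720994-18721053. The listed span of the Nfkbia probe, chr12:56590945-56591440, is longer than a 60-base probe. Whether a probe targets coding sequence or a UTR is not recorded in the files.

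The genes differed in how the 3 arrays of a strain spread. For Fos the lowest and highest B6-ob/ob arrays differed 5.88-fold, for Egr1 4.09-fold, for Jun 3.18-fold and for Nr4a1 3.05-fold. On NZO arrays these ranges were 2.50-fold for Fos, 1.57-fold for Egr1, 1.65-fold for Jun and 1.07-fold for Nr4a1. The SD of Fos over B6-ob/ob arrays equalled or exceeded that of 98.3% of all genes tested, that of Egr1 97.3%, that of Jun 96.0% and that of Nr4a1 95.3%. At the other end stood Nr4a2 at 33.4% and Tnfaip3 at 25.8%. The genes that were not called include those with the widest spread in B6-ob/ob, and those with the smallest adjusted p had narrow spreads there. The test sets a difference against the spread within strains, so this link is partly built into it.

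The order of the B6-ob/ob arrays also split the 10 genes. Replicate 4 was lowest and replicate 6 highest for Fos, Jun, Junb, Egr1, Nr4a1 and Zfp36, while replicate 4 was highest for Ier3, Nfkbia and Tnfaip3. Over all genes replicate 4 was lowest of its strain in 37% and highest in 45.1%, and replicate 6 was highest in 36.7%. On NZO arrays replicate 12 was highest for Fos, Jun, Junb, Egr1 and Zfp36, and replicate 11 for Nr4a1, Nr4a2, Ier3, Nfkbia and Tnfaip3, against 34.8% and 35.5% of all genes. Fos, Jun, Junb and Egr1 thus peaked on other arrays than the NF-kB feedback genes Nfkbia and Tnfaip3, within both strains. Among 11 other AP-1 family genes, NZO replicate 11 was highest of its strain in 7 and B6-ob/ob replicate 4 in 7. These are the arrays on which Nfkbia and Tnfaip3 peaked. With 3 arrays a strain, this order is given as a description.

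**Figure D3:**
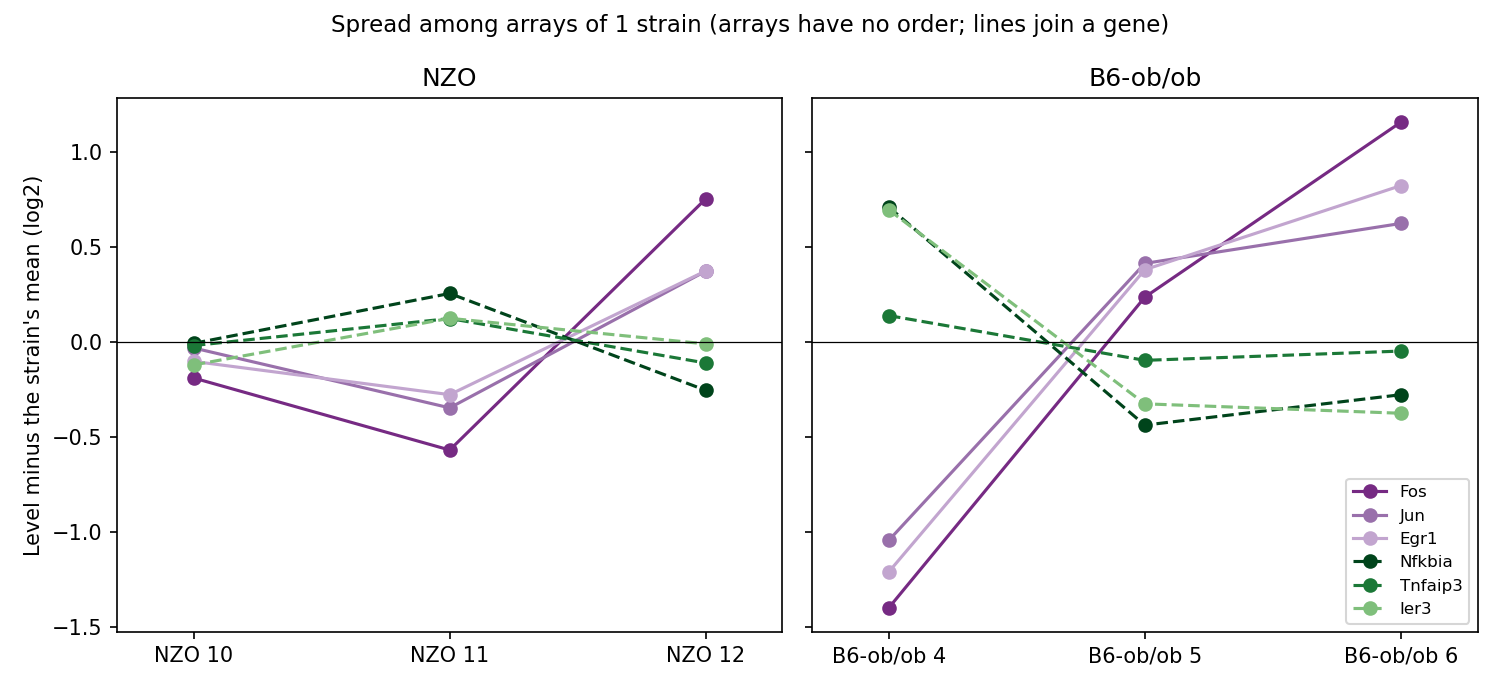
The y axis is each array's log2 level minus its strain's mean, for NZO arrays on the left and B6-ob/ob arrays on the right, and lines only join the points of 1 gene because the arrays have no order. Fos, Jun and Egr1 (purple, solid) are lowest on B6-ob/ob replicate 4 and highest on B6-ob/ob replicate 6 and NZO replicate 12, and Ier3, Nfkbia and Tnfaip3 (green, dashed) are highest on B6-ob/ob replicate 4 and NZO replicate 11.

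The spread of Fos and Jun between arrays was far wider than that between spots of an array. Their probes are printed 10 times per array, and the coefficient of variation over the spots of an array was 2.28% to 5.48% for Fos and 3.06% to 5.41% for Jun. The median processed signal of the Fos spots was 7689, 4659 and 14041 on NZO arrays 10, 11 and 12, against 3023, 11679 and 21309 on B6-ob/ob arrays 4, 5 and 6. On B6-ob/ob replicate 6, 1 of the Fos spots was flagged by the scanner software and left out. Spots of an array share its RNA, so they measure the error of reading and not that of the samples. The other 10 probes have 1 spot per array.

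**Figure D4:**
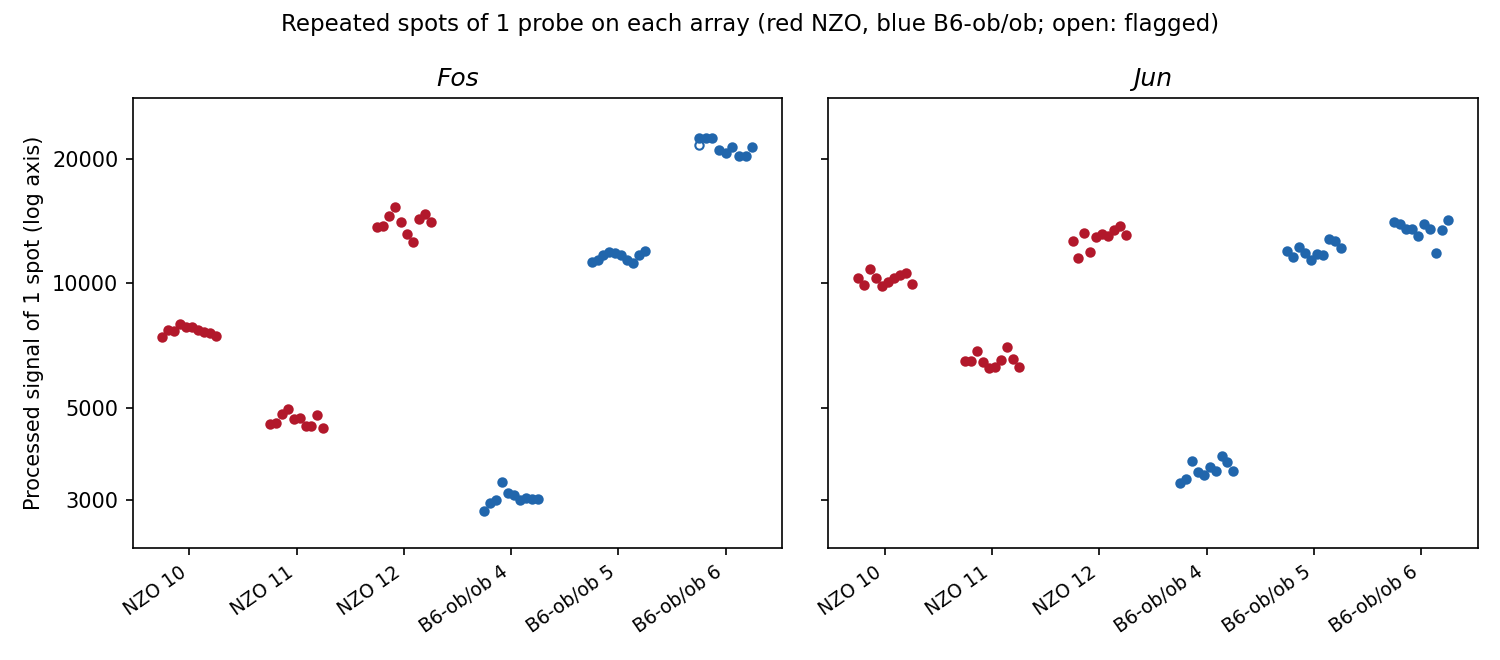
Processed signal, on a log axis, of each of the 10 spots of the Fos probe (left) and the Jun probe (right) on the NZO arrays (red) and the B6-ob/ob arrays (blue), with a flagged spot open. The spots of an array cluster tightly beside the gaps between arrays, and B6-ob/ob replicate 4 is the lowest array for both probes.

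The arrays came from 3 slides, and scan time followed the slide. Slide 2 held NZO replicate 10 and B6-ob/ob replicate 4, slide 3 held NZO replicate 11 and B6-ob/ob replicates 5 and 6, and slide 1 held NZO replicate 12 only, so it gives no value. Within slide 2 the difference was 1.11 for Fos, 1.30 for Jun and 1.29 for Egr1, and within slide 3 it was -1.37, -0.58 and -0.70 for the same genes in that order. For Nfkbia it was 0.29 within slide 2 and 1.62 within slide 3, and for Ier3 0.39 and 1.68. Tnfaip3 stood at 1.19 within slide 2 and 1.54 within slide 3, Nr4a2 at 0.68 and 1.18, Zfp36 at 1.58 and 0.77, Junb at 0.88 and 0.62, and Nr4a1 at 1.87 and 0.50. Fos, Jun and Egr1 differed in sign between the slides. The other 7 genes, whose strains do not overlap over the 6 arrays, could only come out above 0 within a slide, so their sign there adds nothing. Since slide 2 held B6-ob/ob replicate 4 and no other B6-ob/ob array, that sample and its slide cannot be told apart. With slide as a fixed block, 2 of the 10 genes were called higher, Nr4a2 and Tnfaip3, against 9.23% of all genes called higher in that fit.

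Leaving out 1 array at a time moved the calls of the other genes. Tnfaip3, at 1.28 to 1.41, and Nr4a2, at 0.77 to 0.97, were called in each of these 6 fits. Without B6-ob/ob replicate 4, Nfkbia was called at 1.36 (limma adjusted p = 0.00618) and Ier3 stood at 1.56 (0.00134), while Junb was no longer called at 0.67 (0.0663). In the same fit Fos was at -0.80, Jun at -0.23, Egr1 at -0.42 and Nr4a1 at 0.45, none of them called. Without NZO replicate 10, 11 or 12, or without B6-ob/ob replicate 5, the calls of Junb, Zfp36 and Ier3 ended, with adjusted p from 0.058 to 0.121, and their differences stayed between 0.70 and 1.27. Without B6-ob/ob replicate 6, 4 of the 10 were called and Ier3 was not (limma adjusted p = 0.0753). The share of all genes called higher was 12.3% in that fit, 13.5% without B6-ob/ob replicate 4, with 5 of the 10 called, and 7.91% to 11% in the other 4 fits, with 2 of the 10 called in each.

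**Figure D5:**
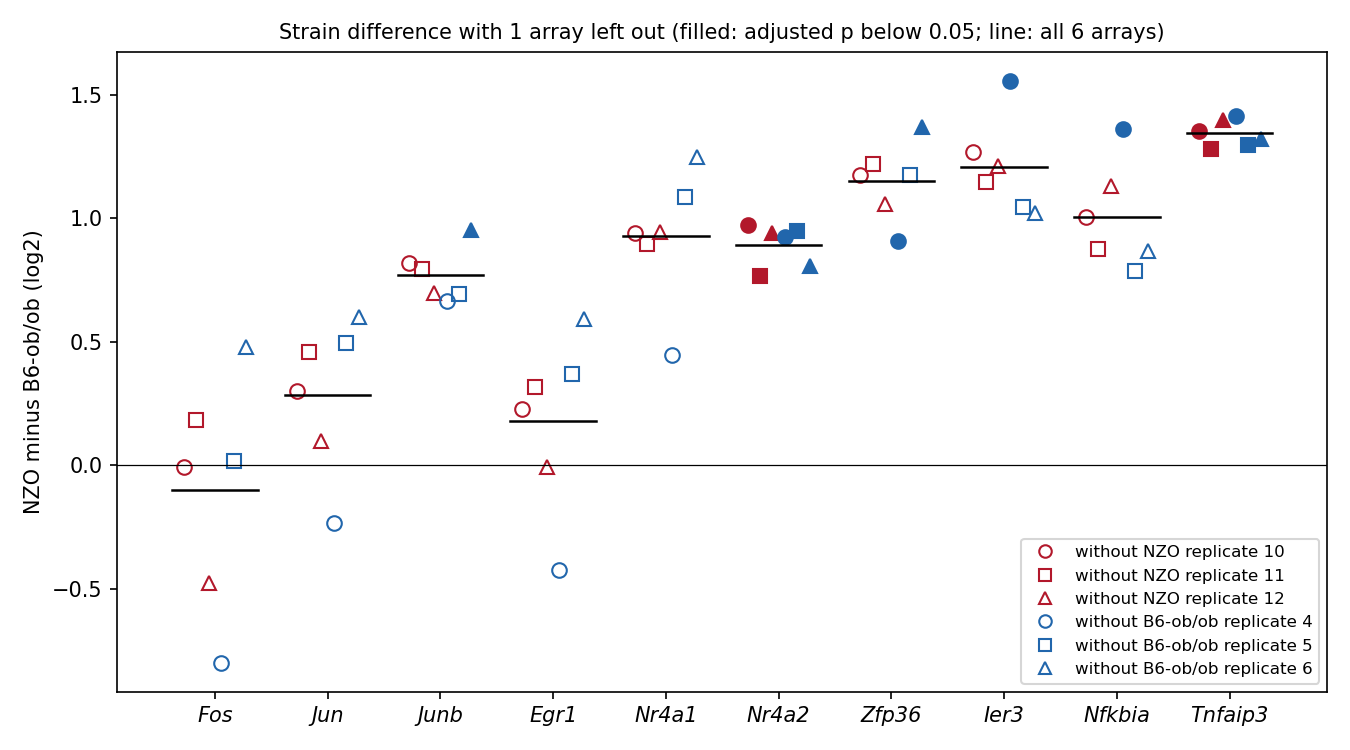
The y axis is the difference of NZO minus B6-ob/ob on the log2 scale, with 1 array left out for each point (red for an NZO array, blue for a B6-ob/ob array), and black lines are the values from all 6 arrays. Filled points were called at an adjusted p below 0.05, which holds for all points of Nr4a2 and Tnfaip3 and for none of Fos, Jun, Egr1 and Nr4a1.

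The relatives of the 10 genes were read from lists of family members and pathway genes. Of 11 other AP-1 family genes 3 were called higher and 0 lower, against 13.2% and 9% of all genes, with a median difference of 0.46. They were Maff, a small MAF protein without an activation domain, at 1.60 (SE 0.12, limma adjusted p = 0.000619), Batf at 1.49 and Fosl2, a FOS relative with slower induction, at 1.39. Fosb, the closest relative of Fos, was not called and had levels of 4.48, 4.34 and 4.77 in NZO, against 3.62, 5.04 and 5.18 in B6-ob/ob. Its lowest array was B6-ob/ob replicate 4 and its highest B6-ob/ob replicate 6, but over the 11 AP-1 relatives replicate 4 was the lowest of its strain in 3 and the highest in 7. Jund, which is expressed largely without a stimulus, differed by 0.04 (limma adjusted p = 0.840). Of 7 tested EGR, NR4A and ZFP36 relatives 1 was called higher and 0 lower, against 13.2% and 9% of all genes. It was Zfp36l1, a relative of Zfp36 that also binds AU-rich elements, at 2.22 (SE 0.19, limma adjusted p = 0.000865). Without B6-ob/ob replicate 4, 2 of the 7 were called higher and 1 lower, against 13.5% and 7.66% of all genes in that fit. Egr2 had 2.10, 1.82 and 2.17 in NZO, against 0.06, 1.97 and 2.07 in B6-ob/ob, so that B6-ob/ob replicate 4 alone lay low, while over the 7 relatives replicate 4 was the lowest of its strain in 3 and the highest in 4.

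Of 31 other immediate early genes 10 were called higher and 2 lower, against 13.2% and 9% of all genes, with a median difference of 0.47. The largest among those called were Arc at -2.72, Npas4 at -2.23 and Csrnp1 (Axud1 in the files) at 1.35. Arc, a regulator of synaptic receptors that responds to neuronal activity, had 1.01, 0.87 and 0.69 in NZO, against 1.79, 4.07 and 4.86 in B6-ob/ob (limma adjusted p = 0.0473). Npas4, a factor induced by calcium entry in neurons and beta cells, had -1.23, -1.19 and -0.08 in NZO, against 0.32, 1.28 and 2.57 in B6-ob/ob (limma adjusted p = 0.0463). Both were thus lower in NZO, while Fos and Egr1 overlapped between the strains, and in both B6-ob/ob replicate 4 was the lowest of its strain and replicate 6 the highest. Csrnp1, an AXIN-induced nuclear protein, had 4.55 ± 0.09 in NZO and 3.20 ± 0.16 in B6-ob/ob (SD, n = 3 each; limma adjusted p = 0.00123). B6-ob/ob replicate 4 was the lowest of its strain in 20 of these 31 genes and replicate 6 the highest in 17, against 37% and 36.7% of all genes. Without B6-ob/ob replicate 5 the count called higher was 5, against 7.91% of all genes in that fit. The 2 calls of Arc and Npas4 ended in 5 of the 6 fits with an array left out. The exception was the fit without B6-ob/ob replicate 4.

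Of 13 inhibitors of MAP kinase signalling, which lies upstream of most immediate early genes, 5 were called higher and 0 lower. The shares of all genes were 13.2% and 9%, and the median of the 13 was 0.49. Dusp16, a phosphatase of the stress kinases JNK and p38, had levels of 2.30, 2.53 and 1.77 in NZO, against -1.38, -2.82 and -2.68 in B6-ob/ob. It was higher by 4.49 (SE 0.42, limma adjusted p = 0.00115), and every NZO array exceeded every B6-ob/ob array by more than 3 on the log2 scale. The nuclear phosphatase gene Dusp2 was higher by 1.80 and Spred2, an inhibitor of RAS signalling, by 0.95. Dusp1, the phosphatase most often induced together with Fos, had 3.47, 3.63 and 4.09 in NZO, against 2.60, 3.45 and 4.39 in B6-ob/ob, and was not called. Without any 1 of NZO replicates 10 and 11 or B6-ob/ob replicates 4, 5 and 6 the count called was 3. In those fits 7.91% to 13.5% of all genes were called higher. With the mean of a gene's probes in place of the brightest the count was 2, against 12.8% of all genes.

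Of 32 NF-kB subunits, kinases and feedback genes other than Nfkbia and Tnfaip3, 7 were called higher and 1 lower. One of the 7, Zc3h12a, was well above background on no B6-ob/ob array and passed the filter only through NZO. Of the other 31, measured on all 6 arrays, 6 were called higher and 1 lower, with a median of 0.09, against 11.5% and 8.51% of all genes so measured. Birc3, a ubiquitin ligase of the TNF receptor complex and itself an NF-kB target, was higher by 1.51 (limma adjusted p = 0.0148), Rela, the main activating subunit, by 0.96 and Tnip1, a partner of the TNFAIP3 protein, by 0.89. The kinase gene Map3k7 was lower, at -0.48 (limma adjusted p = 0.0405), a call kept only in the fit without B6-ob/ob replicate 4 among those with an array left out. The IkB kinase genes Chuk and Ikbkb differed by -0.09 and 0.09 and were not called. Over the 32, Zc3h12a included, the count called higher was 1 without NZO replicate 11 and 1 without B6-ob/ob replicate 5. It was 3 without NZO replicate 10, 1 with slide as a fixed block and 11 without B6-ob/ob replicate 4. The share of all genes called higher in those fits was 8.49%, 7.91%, 9.19%, 9.23% and 13.5%, in that order.

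Of 18 NF-kB target genes on the array 11 were well above background on all 6 arrays, and of these 5 were called higher and 0 lower, with a median of 2.23, against 11.5% of 14800 genes so measured called higher. Another 4 of the 15 that passed the filter did so on no or 1 B6-ob/ob array, among them Ptgs2, which was called, and with them the count was 6. These 4 passed through the NZO arrays, where they are high, so their directions say nothing further. Il6, the gene of interleukin 6, had 2.40, 2.68 and 1.52 in NZO, against -0.33, -1.84 and -3.46 in B6-ob/ob, a difference of 4.07 (limma adjusted p = 0.0143). Cxcl1, a neutrophil chemokine gene, had 3.10, 3.79 and 1.90 in NZO, against 0.98, -1.03 and -1.75 in B6-ob/ob, a difference of 3.53 (limma adjusted p = 0.025). Vcam1, a leukocyte adhesion gene, was higher by 3.15 (limma adjusted p = 0.038). B6-ob/ob replicate 4 was the highest of its strain in all 15 of these genes that were tested, against 45.1% of all genes. It was thus the highest in each of the 11 measured on all 6 arrays. The 15 include the 4 that passed through NZO, which were not well above background on most B6-ob/ob arrays. NZO replicate 11 was the highest of its strain in 12 of the 15 and NZO replicate 12 the lowest in 14. Nfkbia and Tnfaip3 had the same highest array in each strain and the same lowest array among NZO. Over the 15, those 4 included, the count called was 12 without B6-ob/ob replicate 4 and 1 without B6-ob/ob replicate 5. It was 2 without NZO replicate 10, 2 without NZO replicate 11 and 3 without B6-ob/ob replicate 6. The share of all genes called higher in those fits was 13.5%, 7.91%, 9.19%, 8.49% and 12.3%, in that order.

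Of 16 ligands and receptors upstream of these pathways 5 were called higher and 1 lower, against 13.2% and 9% of all genes. Of the 14 measured on all 6 arrays 4 and 1 were called, against 11.5% and 8.51% of genes so measured. The median of the 14 was 0.57. The TNF receptor gene Tnfrsf1b was higher by 1.96 and Osmr, a receptor subunit for oncostatin M, by 1.55, and the lymphotoxin receptor gene Ltbr was lower, at -0.69 (limma adjusted p = 0.0320), a call kept only in the fit without B6-ob/ob replicate 5 among those with an array left out. Tnf had 1.66, 1.82 and 0.42 in NZO, against 0.44, 0.29 and -0.16 in B6-ob/ob, and its difference of 1.11 was not called (limma adjusted p = 0.0981). Over the 16 the count called higher was 2 without B6-ob/ob replicate 5, 2 without NZO replicate 10, 3 without NZO replicate 11 and 8 without NZO replicate 12. The share of all genes called higher in those fits was 7.91%, 9.19%, 8.49% and 11%, in that order. Of 10 heat shock genes, which report protein folding stress, 2 were called higher and 0 lower, against 13.2% and 9% of all genes. They were Hspb1 at 0.89 and Dnaja1 at 0.58. Without B6-ob/ob replicate 6 the count was 4, against 12.3% of all genes called higher. It was 1 without B6-ob/ob replicates 4 or 5 or NZO replicates 10 or 11, against 7.91% to 13.5%.

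Markers of other cells moved with the strains in the same arrays. Beside the counts below, 11.5% of all genes measured on all 6 arrays were called higher and 8.51% lower. Of 9 tested beta cell markers 0 were called higher and 1 lower, with mean log2 levels of 4.67 to 5.05 in NZO and 4.66 to 5.50 in B6-ob/ob, and all 9 were well above background on every array. Of 8 acinar markers measured on all 6 arrays 8 were called higher in NZO, and the sum over the 9 tested of scaled signals was 871 to 1337 in NZO and 116 to 382 in B6-ob/ob. Of 9 stromal markers so measured 8 were called higher, with sums of 68.0 to 76.9 in NZO and 17.4 to 26.9 in B6-ob/ob. Of 4 ductal markers measured on all 6 arrays 3 were called higher, with sums that overlapped at 104 to 143 in NZO and 68.4 to 131 in B6-ob/ob. Krt7, by far the brightest ductal marker, makes up most of these sums and was the 1 not called (0.32, limma adjusted p = 0.443). The 3 called ductal markers did not overlap between the strains. Of 8 macrophage and myeloid markers so measured 5 were called higher, with sums of 15.5 to 30.8 in NZO and 7.02 to 8.14 in B6-ob/ob. Of 11 lymphocyte markers 6 did not pass the filter on dim probes, and only 2 were measured on all 6 arrays, both called higher. The 5 that passed summed to 1.32 to 2.20 in NZO and 0.103 to 0.179 in B6-ob/ob. Ltb, by far the brightest of these 5 in NZO, makes up most of the NZO sums. Of all tested markers, Muc1, Cftr, Pdgfra, Cd163, Cd8b1 and Il7r were well above background on no B6-ob/ob array and passed through NZO. They are left out of these counts, as are those measured on 1 or 2 B6-ob/ob arrays. The sums hold all tested markers of a list, these included, so they depend in part on that filter. Of 10 endothelial markers 4 were called higher, with sums of 72.7 to 89.8 in NZO and 59.8 to 64.9 in B6-ob/ob. B6-ob/ob replicate 4 had the highest acinar, stromal, ductal, lymphocyte, endothelial and beta cell sums of its strain. Ins1 and Ins2 make up most of the beta cell sums, and the mean log2 beta cell level of replicate 4, 4.66, was the lowest. Its macrophage and myeloid sum was the lowest by little, 7.02 against 7.10 on replicate 5. The mean log2 level of those markers was lowest on replicate 5, at -2.01 against -1.95 on replicate 4. Ier3, Nfkbia, Tnfaip3 and the NF-kB target genes were also highest on B6-ob/ob replicate 4, whereas Fos, Jun and Egr1 were lowest there. NZO replicate 12 had the highest acinar, stromal and endothelial sums of its strain. Its ductal sum, its macrophage and myeloid sum, 15.5, and its lymphocyte sum, 1.32, were the lowest. Its beta cell sum was the lowest by little, 2519 against 2522 on NZO replicate 10. Its mean log2 beta cell level, 5.05, was the highest. Nfkbia, Tnfaip3 and 14 of 15 NF-kB target genes were lowest on NZO replicate 12, and Fos, Jun and Egr1 were highest. The part of these cell markers in the differences of the 10 genes was not tested.

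The genes most alike to the 10 were sought among 10422 named genes outside all lists that were well above background on all 6 arrays. Likeness was the root mean square distance between a gene's 6 levels, centred on their own mean, and the mean centred profile of the 10 genes. That mean averages genes with unlike array orders. On B6-ob/ob replicates 4 and 6 the centred level of Fos was -1.35 and 1.21, that of Nfkbia 0.21 and -0.78, and the mean -0.75 and -0.06. The closest were Eps15, at a distance of 0.0454 on the log2 scale, Zfp27 at 0.0534 and Actr2 at 0.0816. EPS15 acts in endocytosis and ACTR2 is a subunit of the actin-nucleating ARP2/3 complex, and Zfp27 is a zinc finger gene. The centred level of Eps15 was 0.30, 0.34 and 0.47 in NZO, against -0.69, -0.29 and -0.13 in B6-ob/ob, which is lowest on B6-ob/ob replicate 4 and highest on NZO replicate 12.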

How the data were processed

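Islet RNA of 3 NZO and 3 B6-ob/ob samples was hybridised to 1-colour Agilent arrays of design 014868. The scanner files the authors deposited give intensity per spot, linear, with background subtracted and the array detrended. The software was Feature Extraction, version 10.5.1.1 per the file headers and 9.1 per the submitters' processing notes. Each scanner file's own label gave its group. Control spots and 61 to 76 flagged spots per array were left out. The log2 values were averaged per probe, and each array's 75th percentile over its 41174 non-control probes, a signal of 342 to 453, was subtracted. Between 23621 and 24711 probes per array were well above background. Probes needed that call on 3 or more of 6 arrays, and 24628 had it. A gene took its brightest kept probe. The strain difference was fitted by limma 3.58.1 (R 4.3.3; lmFit, then eBayes) and tested two-sided. P-values were adjusted after Benjamini and Hochberg over 16418 genes, or over all kept probes, with 0.05 as the threshold. The genes, lists and tests were chosen with earlier results of these data known, so counts over them are descriptions.

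The text names all 10 genes with every probe, up to 3 called genes with the greatest difference in each list among those well above background on all 6 arrays, and the 3 genes most alike. Fosb, Jund, Egr2, Dusp1, Map3k7, Chuk, Ikbkb, Tnf, Zc3h12a, Ptgs2 and Krt7 were named after their values were seen. In each list, genes on the array that failed the filter were not tested.

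The authors' value table has 33150 rows, of which 33074 matched a probe. Its columns named NZO 10, 11 and 12 had medians of 21.3, 21.4 and 21.4, and those named B6-ob/ob 4, 5 and 6 had 22.1, 21.4 and 22.4. Its columns are linear and not centred. Over probes centred on their mean, each of its 6 columns followed an array labelled with the other strain (r 0.944 to 0.971), and r with the array of its own label was -0.633 to -0.402. Under its own labels its direction therefore opposes that of the scanner files, and read through the arrays its columns follow it has theirs. Which set of labels is right is not stated in the sources used here. H2-Ea and Ifi202b are known to be silent in mice of B6 origin, and they were detected on all 3 scanner arrays labelled NZO and 0 labelled B6-ob/ob. The table was used as an alternative only. Other settings changed the scaling, the background, the dim-probe filter, flagged spots, how probes make a gene, slide as a block, the variance prior, array weights, or left out an array. The functions were tested on simulated data.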

Additional observations from a re-analysis of the deposited data

How the results depend on the processing

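The number of the 10 genes called higher in NZO was 5 in the main fit, against 13.2% of all genes. Without the filter on dim probes it was 3, against 6.78%. It was 2 with slide as a fixed block, against 9.23%, and 2 to 5 with 1 array left out, against 7.91% to 13.5%. With the mean of a gene's probes it was 4, against 12.8%, and with array weights 6, against 22.2%. Over the 12 probes the number was likewise 5 in the main fit. It was 3 without the filter, 2 with the block, 2 to 5 with 1 array left out and 8 with array weights. The share of all probes called in those fits is not given. The cause of these changes was not tested. In the deposited value table, read under its own labels, the sign turned, as its columns follow arrays of the other strain. It holds 10 of the 12 probes, 1 per gene, and 5 were called lower, against 12.9% of 16009 genes, with a median of -0.84 over the 10. They were Nr4a2 at -0.90, Zfp36 at -1.14, Ier3 at -1.22, Nfkbia at -0.96 and Tnfaip3 at -1.35, while Junb, by its dimmer probe, stood at -0.68 and was not called (limma adjusted p = 0.180). Over all genes 3643 were called, but 2329 with slide as a fixed block, 6995 with array weights and 1927 to 3573 with 1 array left out. Outside the value table the count called higher ran from 1 to 14 of 15 NF-kB targets, 1 to 12 of 32 NF-kB components, 5 to 15 of 31 other immediate early genes, 2 to 7 of 13 MAP kinase inhibitors, 2 to 13 of 16 ligands and receptors, 0 to 6 of 10 heat shock genes, 2 to 6 of 11 AP-1 relatives and 1 to 3 of 7 EGR, NR4A and ZFP36 relatives. Over the same fits 6.78% to 22.2% of all genes were called higher. Outside the value table, over 18 fits of each gene, Tnfaip3 and Nr4a2 were called in 18, Zfp36 in 12, Ier3 in 11, Junb in 9 and Nfkbia in 4. Fos, Jun, Egr1 and Nr4a1 were called in 0. No paired analysis was possible because the strains share no replicate number, and slide is the only block that was fitted. With 3 arrays a strain, differences as small as those of Fos, Jun and Egr1 could not be told from the spread of B6-ob/ob.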
